A study of Mus musculus with 12 samples.

Results

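Disease-associated microglia (DAM) genes are described here through 10 members of the set: Lpl, Cst7, Spp1, Gpnmb, Cd9, Cd63, Lgals3, Fabp5, Igf1 and Ch25h. They were taken by symbol from the deposited expression tables, in which these 10 are among 24062 entries. The RNA came from BV2, an immortalised mouse microglial line, sequenced after transient lowering or raising of Spi1, the gene of the transcription factor PU.1. The 12 libraries form 4 groups of 3: cells with an shRNA against Spi1, their scrambled controls, cells given a cDNA of mouse Spi1, and their empty controls. Each manipulation had its own controls, so there were 2 experiments of 6 libraries, and all cells had been sorted on a flow cytometer. The gate of the sort and whether libraries of 1 group came from separate cultures are not given in the labels, so p-values reflect the spread among libraries alone, and that spread may be technical. BV2 is a single line without the tissue around it.

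DAM is the state that microglia take on around amyloid plaques, dying neurons and damaged myelin in mouse brain, and reaching it in full depends on the lipid receptor TREM2. Its genes fall into lipid handling (Lpl, Fabp5), lysosomal proteolysis and its inhibitors (Cst7), secreted and membrane glycoproteins (Spp1, Gpnmb, Igf1), tetraspanins of endosomes and exosomes (Cd9, Cd63), a galectin that binds damaged membranes (Lgals3) and an oxysterol-making enzyme (Ch25h). PU.1 binds purine-rich ETS sites in the enhancers and promoters of most myeloid genes, and the series title links its level to Alzheimer's disease and to the inflammatory response of microglia.

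Spi1 itself moved the way the labels state. It was at 50.9, 42.4 and 52.3 FPKM (reads per kilobase of gene and megaread of the library) in knockdown libraries 1, 2 and 3, against 159, 169 and 168 FPKM in scrambled libraries. Overexpression libraries had 287, 224 and 206 FPKM of Spi1 and empty libraries 158, 117 and 131 FPKM, and neither pair of groups overlapped. Depth, recovered from the steps in the FPKM values, was 22.3 to 33.1 megareads per library. Of 11 microglia and macrophage markers, 8 averaged at least 1 FPKM. Cd68, Itgam, Emr1, Ptprc, Csf1r and Fcgr1 averaged 56.0 to 642 FPKM over the 12 libraries. Aif1 and the microglial gene Tmem119 were lower, with means of 6.67 and 3.61 FPKM. The microglial genes P2ry12 and Cx3cr1 stayed at 0.0642 to 0.415 and 0.124 to 0.903 FPKM, and Sall1 was at 0 in all 12. Summed markers of astrocytes, neurons, oligodendrocytes, fibroblasts, lymphocytes and dendritic cells were each below 1 FPKM in every library.

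With Spi1 lowered, 3 of the 10 DAM genes passed the test: Lpl (log2 change 0.30) and Cst7 (0.39) rose and Lgals3 fell (-0.35). Of the other members 6 did not pass and Ch25h was too low to test. The 3 calls among 9 tested members stand beside 26.3% of all 11214 genes tested, 17.4% higher and 8.86% lower (limma, Benjamini-Hochberg, BH, adjusted p under 0.05), so the share called was near the background. Knockdown and scrambled libraries did not overlap for these 3 members and for 45.4% of genes tested. The median log2 change was -0.0068 over the 9 members and 0.07 over all genes tested. With Spi1 raised, none of the 9 members passed, and neither did any of 11217 genes (0% called by limma with BH adjustment; 122 genes at an unadjusted p under 0.05, none of them a member, and 0 called and 94 at that level in limma-voom on recovered reads). Spi1 itself, at a log2 change of 0.81, was not called with overexpression either (limma, unadjusted p = 0.00216, BH adjusted p = 0.9999). It passed only with the library number as a block (limma, BH adjusted p = 0.0357). The effect of overexpression minus that of knockdown was tested directly. Lgals3 was the 1 member of 9 that passed, its overexpression effect being above its knockdown effect. Of 11224 genes, 4.84% were called in either direction and 1.90% called higher.

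**Figure D1:**
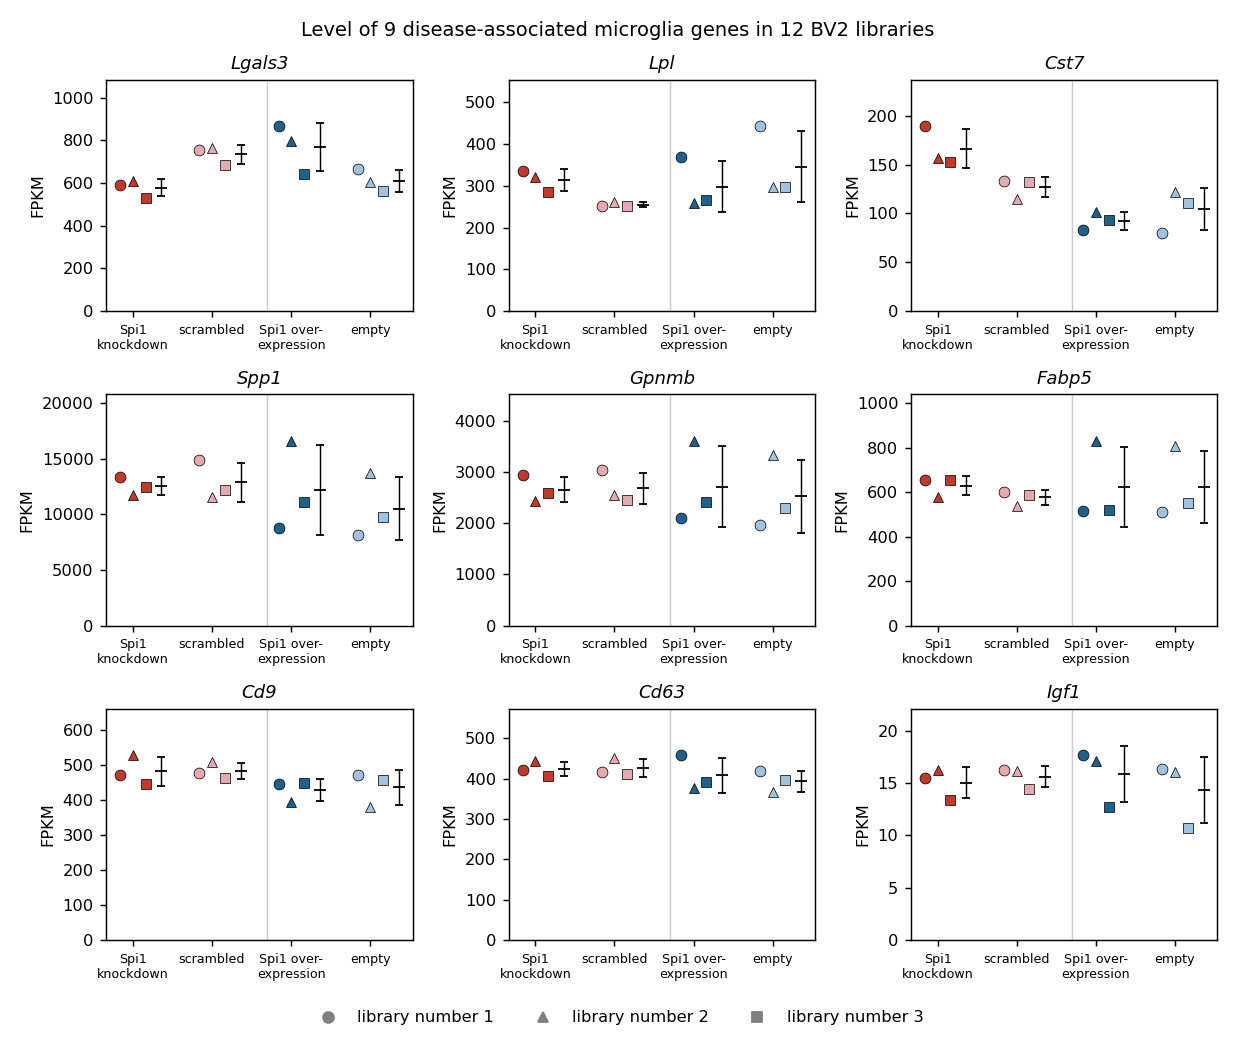
Level in FPKM (vertical axis, from 0) of the 9 members above the detection floor, in knockdown, scrambled, overexpression and empty libraries; circles, triangles and squares are the libraries numbered 1, 2 and 3, and bars give the mean ± SD of 3 libraries. The knockdown libraries lie wholly below the scrambled libraries for Lgals3 and wholly above them for Lpl and Cst7, while Spp1, Gpnmb and Fabp5 show a high triangle in both groups of the overexpression experiment.

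In level, most members were among the most abundant genes, from percentile 94.9 of genes tested for Cst7 to 99.99 for Spp1. Igf1 lay near the middle, at percentile 53.8, and Ch25h was below all genes tested. Spp1, which encodes the secreted phosphoprotein osteopontin, averaged 12013 FPKM over the 12 libraries and was the top gene of the table by mean. It was the most abundant gene in 10 of 12 libraries and ranked 2 in overexpression library 1 and empty library 1. Its reads made up 1.35% to 2.76% of a library, and all 10 members together made up 2.54% to 4.54%. Gpnmb, a transmembrane glycoprotein of lysosomes and the cell surface, ranked 9 at a mean of 2641 FPKM. Lgals3, Fabp5, Cd9, Cd63 and Lpl ranked 102 to 222, with means of 673, 613, 458, 414 and 303 FPKM. Cst7 ranked 568 at 122 FPKM, and Igf1 ranked 5191 at 15.2 FPKM, a level 789-fold under that of Spp1. A further member, Ch25h, was at the edge of detection. In bulk libraries like these, fewer cells that express a gene and less of its RNA per cell cannot be told apart.

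The promoters of Spp1, Gpnmb, Cst7 and Lgals3 are shown because the first pair are the most abundant members and the others moved in opposite directions with Spi1 lowered. Each runs from 250 bases before to 50 bases after a RefSeq start on GRCm38.p6, 5′ to 3′. Capitals mark matches, on either strand, to GGAAGT (an ETS core), GAGGAAGT (a longer PU.1-type site that contains GGAAGT) or TGANTCA (an AP-1 site); CACGTG (the E-box that MiT/TFE factors bind) was also searched.
Spp1 promoter, chr5:104434861-104435160, plus strand: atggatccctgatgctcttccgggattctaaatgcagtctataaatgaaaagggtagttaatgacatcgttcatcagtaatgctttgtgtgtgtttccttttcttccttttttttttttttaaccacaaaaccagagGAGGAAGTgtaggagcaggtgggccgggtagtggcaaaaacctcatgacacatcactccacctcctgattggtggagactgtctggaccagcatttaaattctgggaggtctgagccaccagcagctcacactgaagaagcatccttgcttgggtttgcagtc
Gpnmb promoter, chr6:49036268-49036567, plus strand: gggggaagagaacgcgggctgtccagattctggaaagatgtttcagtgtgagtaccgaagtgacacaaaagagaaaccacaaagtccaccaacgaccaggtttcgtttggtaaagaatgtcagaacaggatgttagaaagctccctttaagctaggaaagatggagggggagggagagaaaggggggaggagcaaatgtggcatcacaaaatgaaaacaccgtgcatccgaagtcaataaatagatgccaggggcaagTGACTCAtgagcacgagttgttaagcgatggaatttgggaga
Cst7 promoter, chr2:150570165-150570464, plus strand: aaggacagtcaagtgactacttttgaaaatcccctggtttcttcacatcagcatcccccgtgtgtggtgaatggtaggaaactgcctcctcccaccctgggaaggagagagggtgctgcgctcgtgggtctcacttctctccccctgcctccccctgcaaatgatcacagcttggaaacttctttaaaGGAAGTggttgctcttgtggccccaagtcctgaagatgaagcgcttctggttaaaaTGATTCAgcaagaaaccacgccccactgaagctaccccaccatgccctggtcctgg
Lgals3 promoter, chr14:47373610-47373909, plus strand: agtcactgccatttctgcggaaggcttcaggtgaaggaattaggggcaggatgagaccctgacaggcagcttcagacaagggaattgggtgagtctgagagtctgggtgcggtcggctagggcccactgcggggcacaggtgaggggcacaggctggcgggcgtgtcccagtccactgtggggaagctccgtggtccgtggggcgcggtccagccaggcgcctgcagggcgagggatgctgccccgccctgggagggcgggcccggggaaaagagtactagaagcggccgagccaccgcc
The Spp1 window held GAGGAAGT starting 113 bases before the start, a sequence found in 3.11% of 32544 promoters. Cst7 held GGAAGT starting 62 bases before the start and TGANTCA starting 6 bases before it, which occur in 23.7% and 7.79% of promoters. Gpnmb held TGANTCA just after the start, and the Lgals3 window, at 67% G and C against a median of 53%, held none of these motifs. Promoter entries were found for 8 of the 10 members, without Fabp5 and Lpl; among the others, Cd63 held GGAAGT and Igf1 held TGANTCA, and CACGTG, in 7.17% of promoters, was in none. RefSeq has a second Spp1 start with none of the motifs in its window, and the RefSeq start of Lgals3 lies inside the longer GENCODE gene. A match is a run of letters and does not show binding.

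Lgals3, which encodes galectin-3, a lectin that binds β-galactosides on the cell surface and on ruptured lysosomes, had the lowest log2 change of the 9 tested members in knockdown and the highest in overexpression. Its level was 591, 608 and 532 FPKM in knockdown libraries 1, 2 and 3, against 756, 766 and 684 FPKM in scrambled libraries. Every knockdown library was below every scrambled library, as was so for 15.1% of genes tested, and the same-numbered ratios were close to each other at 0.782, 0.794 and 0.778. The log2 change was -0.35 with a standard error of 0.0789 (limma, BH adjusted p = 0.0190). Overexpression libraries had 868, 795 and 644 FPKM of Lgals3 and empty libraries had 665, 606 and 561 FPKM. Here the groups overlapped, because overexpression library 3 was below empty library 1, yet each overexpression library was above its own same-numbered control, by ratios of 1.30, 1.31 and 1.15. That log2 difference of 0.32, with a standard error of 0.135, did not pass (limma, unadjusted p = 0.0505, BH adjusted p = 0.9999). It did not pass with the library number as a block either (limma, BH adjusted p = 0.145).

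The effects of the opposite manipulations on Lgals3 differed by 0.67 on the log2 scale, overexpression minus knockdown, with a 95% interval of 0.32 to 1.03 (limma, BH adjusted p = 0.0399). With the library number as a block this difference also passed (limma, BH adjusted p = 0.000876). Lgals3 averaged 577 ± 40.0 FPKM in knockdown and 735 ± 44.9 FPKM in scrambled libraries, and 769 ± 114 FPKM in overexpression and 611 ± 52.2 FPKM in empty libraries (SD, n = 3 each). The overexpression mean was thus the highest, then the scrambled, the empty and the knockdown mean; overexpression and scrambled means lay within an SD of each other, as did the empty and knockdown means. The fall in knockdown no longer passed without scrambled library 1 or 2 (limma, BH adjusted p = 0.0512 and 0.0554) or knockdown library 3 (0.0648). The call on the difference was kept when scrambled library 3, empty library 1 or overexpression library 3 was left out and lost without each of the other 9 libraries, with BH adjusted p up to 0.111 in limma; without the filter on low values it was 0.0538.

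Lpl and Fabp5 handle lipid: lipoprotein lipase frees fatty acids from triglyceride-rich lipoproteins, and FABP5 carries fatty acids inside the cell. Lpl was at 335, 322 and 285 FPKM in knockdown libraries, against 251, 261 and 252 FPKM in scrambled libraries. The scrambled libraries lay close together and every knockdown library was above them, as was so for 30.3% of genes tested. Lpl rose by 0.30 on the log2 scale with a standard error of 0.0758 (limma, BH adjusted p = 0.0282). It was at 368, 259 and 266 FPKM in overexpression libraries and 444, 298 and 297 FPKM in empty libraries. Library 1 was the highest in both of these groups, and although the groups overlapped, each overexpression library was below its own control, by ratios of 0.830, 0.869 and 0.895. The overexpression change of -0.21 did not pass (limma, BH adjusted p = 0.9999; 0.164 with the library number as a block).

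The call on Lpl depended on how libraries were scaled. With median-of-ratios scaling its knockdown change was 0.21 and did not pass (limma, BH adjusted p = 0.0828). Leaving out scrambled library 1, 2 or 3, or knockdown library 1 or 2, also lost the call, at BH adjusted p of 0.0685, 0.0564, 0.0715, 0.0837 and 0.0862 in limma. The difference between the effects was -0.51 with an interval of -1.03 to 0.02 (limma, BH adjusted p = 0.249); with the library number as a block it passed (limma, BH adjusted p = 0.00273).

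Fabp5 was at 652, 580 and 655 FPKM in knockdown libraries and 600, 538 and 589 FPKM in scrambled libraries. The groups overlapped at knockdown library 2, but all 3 same-numbered ratios were above 1, at 1.09, 1.08 and 1.11, as for 47.3% of genes tested. The change of 0.13 had an interval of -0.05 to 0.31 and did not pass (limma, BH adjusted p = 0.259; 0.0576 with the library number as a block). Fabp5 levels in overexpression libraries were 516, 832 and 521 FPKM, beside 513, 808 and 549 FPKM in empty libraries. Library 2 stood far above the other 2 in both groups, and the change of -0.0077 had a wide interval of -0.61 to 0.59. With the library number as a block this interval narrowed to -0.12 to 0.10, and the change did not pass (limma, BH adjusted p = 0.959).

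Cst7 encodes cystatin F, an inhibitor of lysosomal cysteine cathepsins, in mice and humans made by immune cells. It was at 189, 157 and 153 FPKM in knockdown libraries and 133, 115 and 132 FPKM in scrambled libraries. All knockdown libraries were above all scrambled libraries, with same-numbered ratios of 1.42, 1.36 and 1.16. Cst7 rose by 0.39 on the log2 scale with a standard error of 0.103 (limma, BH adjusted p = 0.0321), the largest change among the 9 members tested. The overexpression libraries had 82.6, 101 and 93.2 FPKM and the empty libraries 80.0, 122 and 111 FPKM. Library 1 was low in both groups and the groups overlapped; the change of -0.15 did not pass (limma, BH adjusted p = 0.9999).

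Cst7 lost its call without any 1 of the 6 libraries of the knockdown experiment (limma, BH adjusted p = 0.0518 to 0.0831), under median-of-ratios scaling (0.0774) and without the filter on low values (0.0671). Its log2 change stayed between 0.29 and 0.44 with 1 library left out. The effects differed by -0.54, with an interval of -1.01 to -0.07 (limma, BH adjusted p = 0.174), and this passed with the library number as a block (limma, BH adjusted p = 0.00876). Cst7 was lower in all 6 libraries of the overexpression experiment than in 5 of the 6 of the knockdown experiment, overlapping only scrambled library 2, and a shift between experiments cannot be told apart from a difference between their controls.

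Osteopontin and GPNMB bind integrins, CD44 and syndecan 4 on neighbouring cells. Spp1 was at 13321, 11691 and 12486 FPKM in knockdown libraries, against 14827, 11569 and 12173 FPKM in scrambled libraries. The groups overlapped fully, and the change of -0.03 had an interval of -0.28 to 0.21 (limma, BH adjusted p = 0.830). Overexpression libraries had 8802, 16617 and 11139 FPKM of Spp1 and empty libraries had 8130, 13676 and 9723 FPKM. The spread between numbers was larger than the shift between groups: library 2 was highest in both, and every overexpression library exceeded its own control, by ratios of 1.08, 1.22 and 1.15. This change of 0.20 had an interval of -0.48 to 0.87 (limma, BH adjusted p = 0.9999), which narrowed to 0.08 to 0.32 with the library number as a block and did not pass (0.220). The difference between effects, 0.23, passed with the block (limma, BH adjusted p = 0.0427) and did not without it (0.743).

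Gpnmb was at 2930, 2438 and 2595 FPKM in knockdown libraries and 3031, 2546 and 2459 FPKM in scrambled libraries. Library 1 was the highest in both groups, the groups overlapped, and the change of -0.01 had an interval of -0.26 to 0.23. In overexpression libraries Gpnmb was at 2105, 3610 and 2413 FPKM, beside 1962, 3319 and 2284 FPKM in empty libraries. Again library 2 stood above the rest in both groups, and the same-numbered ratios were 1.07, 1.09 and 1.06. The change of 0.10 did not pass (limma, BH adjusted p = 0.9999; 0.336 with the library number as a block).

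Igf1 encodes insulin-like growth factor 1, a secreted growth factor that microglia supply to myelinating cells and neurons. It ranged over 13.4 to 16.3 FPKM in knockdown libraries and 14.5 to 16.3 FPKM in scrambled libraries, and over 12.8 to 17.7 FPKM in overexpression libraries and 10.7 to 16.3 FPKM in empty libraries. Library 3 was the lowest in each of the 4 groups. The knockdown change was -0.05 (interval -0.26 to 0.15) and the overexpression change was 0.14 (interval -0.33 to 0.61), with every overexpression library above its control, by ratios of 1.08, 1.07 and 1.19. The difference of 0.20 passed with the library number as a block (limma, BH adjusted p = 0.0424) and did not without it (0.676).

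The tetraspanins Cd9 and Cd63, membrane proteins that organise partner receptors and mark exosomes, were the flattest members. Cd9 ranged over 445 to 528 FPKM in knockdown libraries and 463 to 507 FPKM in scrambled libraries, and over 394 to 450 FPKM in overexpression libraries and 379 to 473 FPKM in empty libraries. Its changes were -0.0052 (interval -0.19 to 0.18) with Spi1 lowered and -0.02 (interval -0.30 to 0.26) with Spi1 raised. Cd63 ranged over 408 to 443 FPKM in knockdown libraries and 411 to 452 FPKM in scrambled libraries, and over 377 to 458 FPKM in overexpression libraries and 367 to 418 FPKM in empty libraries. Its changes were -0.0068 (interval -0.16 to 0.15) and 0.05 (interval -0.21 to 0.31). These intervals, without the block, leave room for changes of about 0.2 in knockdown and 0.3 in overexpression for either gene. With the library number as a block they were narrower. For Cd9 they were -0.12 to 0.11 in knockdown and -0.13 to 0.10 in overexpression. For Cd63 they were -0.11 to 0.10 and -0.07 to 0.17. Across the 12 libraries Cd9 and Cd63 were also the closest pair among the 36 pairs of tested members. The root mean square distance between their centred log2 profiles was 0.0797. Flat profiles lie close by this measure, and around their own means the root mean square was only 0.128 for Cd9 and 0.0943 for Cd63.

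Ch25h encodes cholesterol 25-hydroxylase, which makes the oxysterol 25-hydroxycholesterol. Recovered reads numbered 1, 1 and 0 in knockdown libraries and 2, 0 and 2 in scrambled libraries. Overexpression libraries had 0, 0 and 2 reads and empty libraries 1 read each. All 12 values were under a floor of 3 reads, which corresponds to 0.0671 to 0.0994 FPKM by library, so no change was detectable at this depth. Floors cover counting error only.

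**Figure D2:**
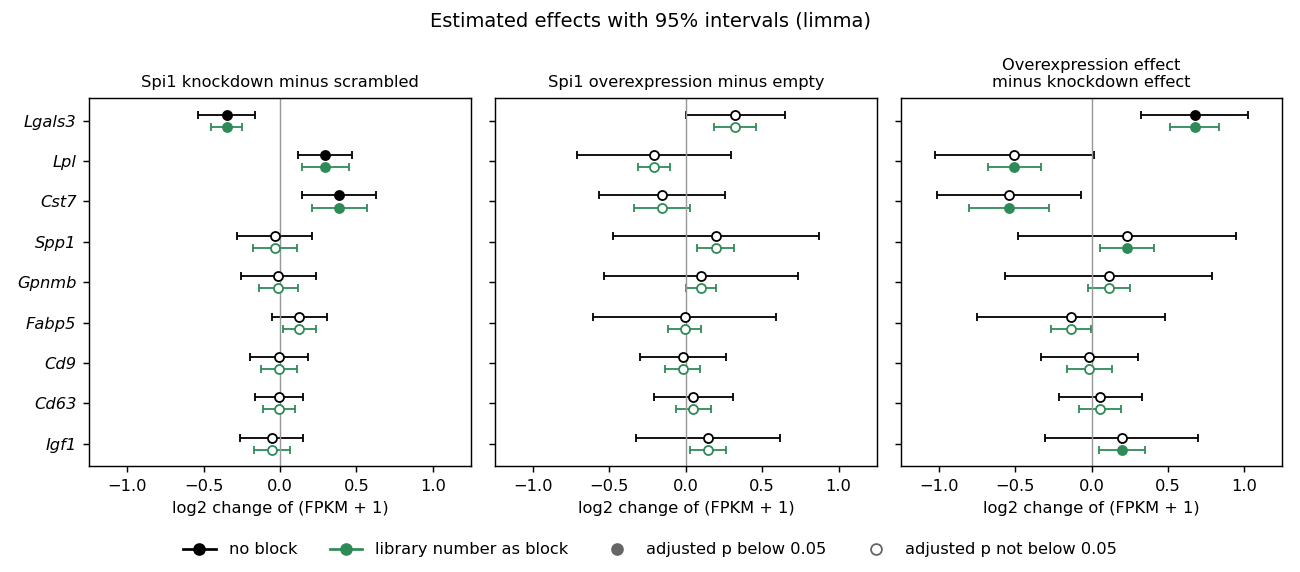
Log2 change of (FPKM + 1) for the 9 tested members in knockdown minus scrambled, overexpression minus empty, and the second effect minus the first; points are limma estimates, bars their 95% intervals, black without and green with the library number as a block, and filled points have a BH adjusted p under 0.05. Lgals3 lies at -0.35, 0.32 and 0.67, with Lpl and Cst7 on the opposite side of 0 in each panel.

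Same-numbered libraries deviated together, most of all in the overexpression experiment, and the members split by how they did so. Relative to the mean of libraries 1 and 3 of its group, library 2 held 1.67 times the Spp1 level in overexpression and 1.53 times in empty libraries. The ratios were 1.60 and 1.56 for Gpnmb, 1.60 and 1.52 for Fabp5, and 1.15 and 1.28 for Cst7. In the same libraries Cd9 (0.880 and 0.814) and Cd63 (0.888 and 0.901) were lower. For Lpl the ratios were 0.817 and 0.805, but library 1 was the highest in both groups and empty library 2 lay between libraries 1 and 3. The knockdown experiment did not have this: its library 2 held 0.906 times the Spp1 level in knockdown and 0.857 times in scrambled libraries. What the number stands for is not given in the labels. With both libraries numbered 2 left out, the overexpression changes of Spp1, Gpnmb and Fabp5 were 0.16, 0.09 and -0.03, and again no member passed (limma with BH adjustment; 210 genes at an unadjusted p under 0.05).

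**Figure D3:**
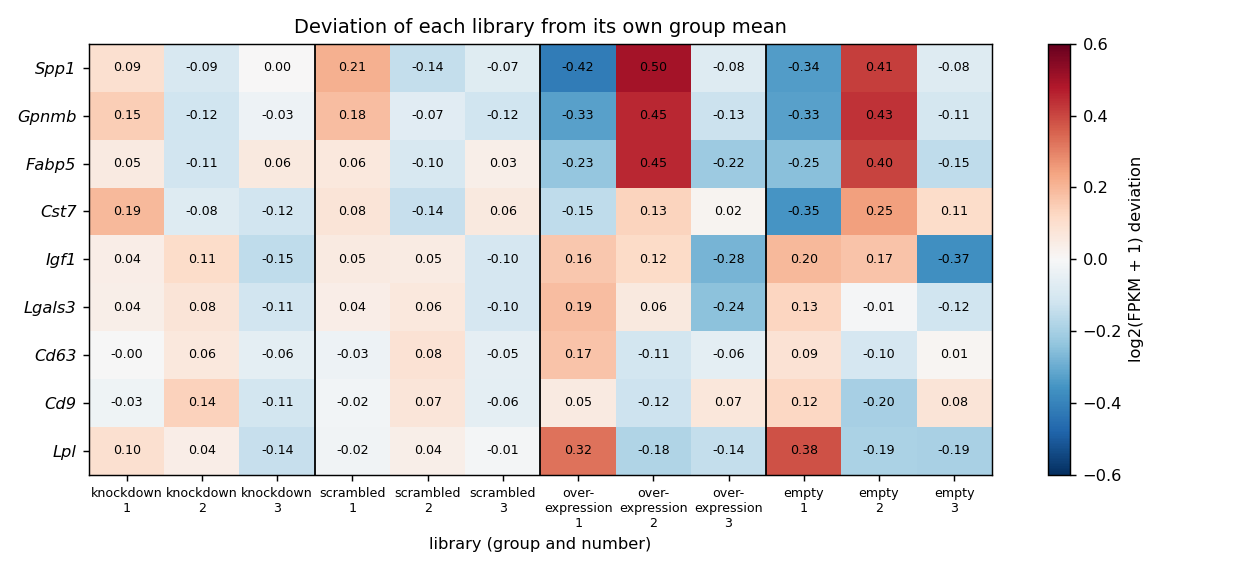
Deviation of log2(FPKM + 1) from the mean of its own group, for 9 members (rows) in 12 libraries (columns, by group and number); red is above and blue below the group mean. Overexpression and empty libraries numbered 2 reach 0.50 and 0.41 for Spp1, while Lpl is highest in the libraries numbered 1 of those groups, at 0.32 and 0.38.

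With the library number as a block, which compares each library with its same-numbered control, the same 3 members were called in knockdown, beside 45.3% of all genes. In overexpression, no member and 13 genes (0.116%) were called; 5 of 9 members, Lgals3, Lpl, Spp1, Igf1 and Gpnmb, had an unadjusted p under 0.05 in this fit, as did 14.1% of all genes. Lgals3, Spp1, Gpnmb and Igf1 were higher in 3 of 3 overexpression pairs, as were 14.0% of genes tested, and Lpl was lower in 3 of 3, as were 23.8%. No member's overexpression and empty groups were free of overlap, against 4.06% of genes. The difference between effects was called for 5 members, Lgals3, Lpl, Cst7, Spp1 and Igf1, beside 41.5% of all genes.

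By the distance between centred log2 profiles over the 12 libraries, Gpnmb was the gene nearest to Spp1 among 10507 (0.0918, against a median of 0.351 over all genes). Gpnmb itself was nearest to Lilrb4 (0.0826), Bcl6 (0.0837) and Tpm1 (0.0894). Nearest to Fabp5 was Dusp4 (0.0506), to Cst7 Olfm1 (0.124), to Lpl Qtrtd1 (0.108) and to Igf1 Rhob (0.0987). The genes nearest to Lgals3 were Fam129b (0.103), Mtmr10 (0.111) and Psap (0.116), and those nearest to the flat Cd9 and Cd63 were Gabarapl2 (0.0393) and Hsd17b12 (0.0440). Cst7 had the largest own variation of the 9, a root mean square of 0.360 around its mean, and Cd63 the smallest, 0.0943, against a median of 0.158 over genes. These distances describe 12 libraries that share treatments and numbers.

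Genes that work with the members were counted from lists, first the rest of the DAM programme. These lists were chosen with earlier results of these data known. In knockdown 26.3% of all genes tested were called, 17.4% higher and 8.86% lower. With the library number as a block 45.3% were called, 3435 genes higher and 1646 lower of 11214. A count near these shares is not a result about its list. Of 8 stage 1 DAM genes, which do not need TREM2, 3 fell and none rose in knockdown, with a median log2 change of -0.32. Lyz2, the lysozyme of macrophages, fell to 1197 ± 316 FPKM in knockdown libraries, against 2387 ± 394 FPKM in scrambled libraries (SD, n = 3 each; log2 change -1.02, limma, BH adjusted p = 0.0110). With the library number as a block 5 fell and 1 rose. Of 8 other stage 2 genes, 2 rose and 2 fell. Clec7a, the β-glucan receptor dectin-1, fell to 9.83 ± 2.01 FPKM in knockdown libraries, against 29.1 ± 2.93 FPKM in scrambled libraries (log2 change -1.49, limma, BH adjusted p = 0.00177). Csf1, the growth factor of macrophages, rose to 121 ± 13.2 FPKM in knockdown libraries, against 79.0 ± 9.49 FPKM in scrambled libraries (log2 change 0.61, limma, BH adjusted p = 0.00938). Apoe, of stage 1, averaged 468 ± 146 FPKM in knockdown and 336 ± 98.8 FPKM in scrambled libraries (log2 change 0.48); it did not pass without the block (limma, BH adjusted p = 0.230) and was the stage 1 gene that passed as higher with it (0.00616).

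Homeostatic microglia genes were mostly too low to test, with 6 of 15 tested, 1 higher and 2 lower in knockdown. Mef2c, a transcription factor of mature microglia, was higher in knockdown than in scrambled libraries (log2 change 0.74, limma, BH adjusted p = 0.00360). Mef2c averaged 17.7 FPKM in knockdown, 10.2 FPKM in scrambled, 15.1 FPKM in overexpression and 16.3 FPKM in empty libraries. The scrambled mean was thus the lowest, and the knockdown mean was nearer to the overexpression and empty means. Whether Mef2c rose with Spi1 lowered or was low in the scrambled controls was not tested. The CSF1 receptor gene Csf1r fell by 0.73 on the log2 scale (limma, BH adjusted p = 0.00396). The microglia and macrophage markers named above summed to 930 to 1001 FPKM in knockdown libraries and 1119 to 1153 FPKM in scrambled libraries, with 4 of 8 tested lower and 1 higher (5 and 1 with the block), and Sall1 at 0. The part of this shift in the members' changes was not tested.

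Around Lpl and Fabp5, 4 of 15 tested genes of lipid uptake and storage fell in knockdown and none rose, while Lpl rose. With the library number as a block 7 fell and 1 rose. Of all genes tested, 8.86% were called lower and 17.4% higher without the block. With it, 1646 of 11214 were lower and 3435 higher. Lipa, the lysosomal acid lipase, averaged 80.7 ± 3.88 FPKM in knockdown and 139 ± 18.7 FPKM in scrambled libraries (log2 change -0.77, limma, BH adjusted p = 0.00380). Acsl4, which links arachidonic acid to coenzyme A, fell by 0.66 on the log2 scale (limma, BH adjusted p = 0.00193). Around Cst7, 5 of 7 tested cathepsins and other cystatins fell and none rose (6 lower with the block), with a median of -0.47, opposite in sign to the change of Cst7. Ctsk, the collagen-cleaving cathepsin K, averaged 432 ± 68.1 FPKM in knockdown and 842 ± 60.1 FPKM in scrambled libraries (log2 change -0.97, limma, BH adjusted p = 0.00360). Cstb, the cytosolic inhibitor cystatin B, and Ctsh, cathepsin H, fell by 0.50 and 0.44 on the log2 scale (limma, BH adjusted p = 0.00294 and 0.00713).

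Beside the flat Cd9 and Cd63, 5 of 9 other tetraspanins tested fell and none rose, among them Cd82 (-0.64) and Cd53 (-0.40; limma, BH adjusted p = 0.00280 and 0.00998); with the library number as a block 5 were lower and 2 higher. The MiT/TFE factors, which drive lysosomal genes and Gpnmb, and their regulators had 3 of 7 lower and none higher. Called lower were the factors Tfec (-0.71) and Tfe3 (-0.41) and the regulator Fnip1 (-0.33), with limma BH adjusted p of 0.00786, 0.00474 and 0.00840. The factors Mitf (0.06) and Tfeb (0.27) did not pass (limma, BH adjusted p = 0.489 and 0.0585). With the library number as a block 4 were lower and 1, Tfeb, higher. Of 8 tested receptors of osteopontin and GPNMB, 2 rose and 2 fell, or 3 and 3 with the block; the fibronectin and osteopontin receptor subunit Itga5 changed by -0.37 (limma, BH adjusted p = 0.00945). Galectins and their ligands had 1 of 7 higher and 2 lower (3 lower with the block), one of them Lgals8 (-0.42; limma, BH adjusted p = 0.00606). In the oxysterol pathway, 2 of 8 rose and 1 fell, or 2 and 3 with the block. Insig1, a sterol-controlled brake on cholesterol synthesis, rose by 0.87 on the log2 scale (limma, BH adjusted p = 0.00193) and its relative Insig2 fell by 0.28 (limma, BH adjusted p = 0.0116). Among 4 IGF receptors and binding proteins tested, 1 rose, Igf1r (0.30; limma, BH adjusted p = 0.0379), and this was lost under median-of-ratios scaling (0.102) and without scrambled library 2 or 3 or knockdown library 1 or 3 (0.0956 to 0.115). With the block 1 rose and 1 fell. The counts of all these lists stand beside 26.3% of genes tested called without the block and 45.3% with it. With Spi1 raised, none of the genes of these lists passed in limma with BH adjustment.

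**Figure D4:**
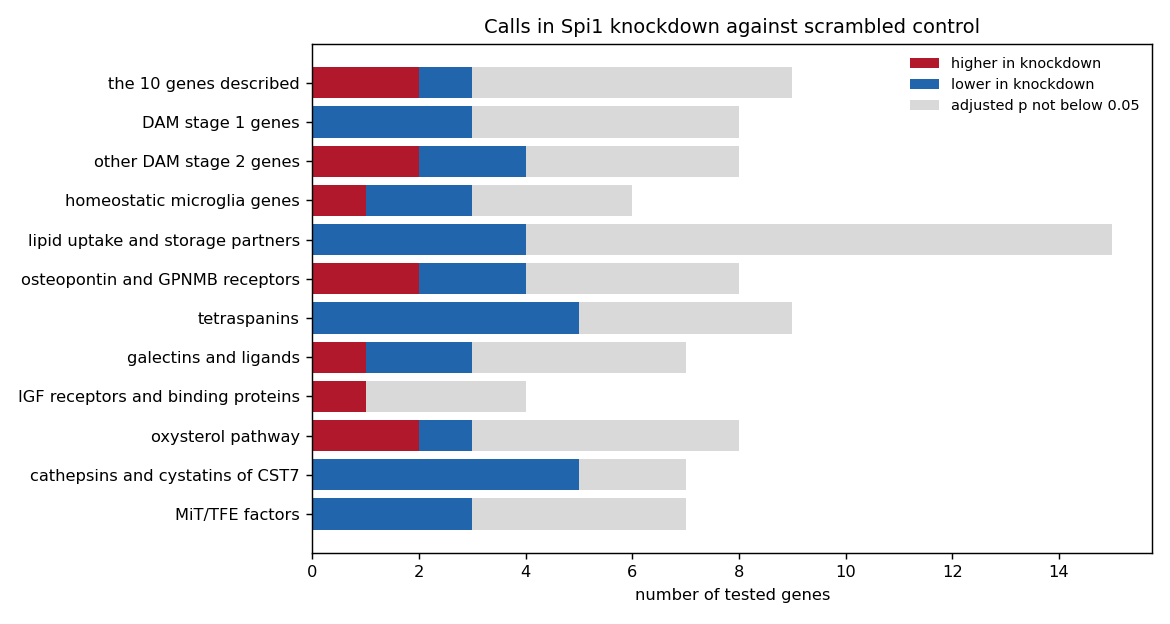
Number of tested genes (horizontal axis) in each list that were higher (red), lower (blue) or not called (grey) in knockdown against scrambled libraries, by limma with a BH adjusted p under 0.05. The 9 tested members had 2 higher and 1 lower, while the lists of cathepsins and cystatins and of tetraspanins each had 5 lower and 0 higher without the library number as a block. Over all 11214 genes tested, 17.4% were called higher and 8.86% lower.

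The scaling of libraries bears on these directions. Of the 2945 genes called in knockdown, 1952 were higher and 993 lower; with median-of-ratios scaling 1251 were higher and 1454 lower, and the median change of all genes shifted by -0.08. Lgals3 kept its call (limma, BH adjusted p = 0.0121), and no named gene other than Lpl, Cst7 and Igf1r lost its own.

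Some members share annotation with other genes, and the library kit does not mark strand. Exons of Spp1 overlap Gm42793, those of Cd9 overlap the antisense gene Gm26728, and those of Ch25h the antisense gene Gm26902, so reads of these pairs cannot be told apart. Fabp5, Cd9 and Cd63 also have pseudogenes, and Lyz2 a close copy in Lyz1; how reads that match both were counted is not given in the sources used here, so their levels are uncertain to that extent. Spp1 spans bases 104435118 to 104441050 of chromosome 5 and Lgals3 bases 47367751 to 47386160 of chromosome 14, both on the plus strand, in the GENCODE annotation of mm10. Cst7 spans 150570415 to 150578944 of chromosome 2 and Lpl 68880491 to 68907448 of chromosome 8, also on the plus strand, and no other annotated gene overlaps their exons or those of Lgals3.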

How the data were processed

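Per the labels, polyA RNA of sorted BV2 cells was made into TruSeq v2 libraries, which do not mark strand, and sequenced from 1 end over 100 bases. FPKM values were deposited by the authors, 1 column per library, in 1 table per experiment. The unit is not stated and was read from the values, which are whole multiples of a step set by gene length and library total. STAR 2.5.2a, featureCounts, DESeq2 1.14, CASAVA 1.8.2, bcl2fastq and the build mm10 appear in the submitters' processing notes, with no roles. Of annotation, gene lengths and strandedness of counting, each is not given in the sources used here. FPKM is scaled by each library's own total, so a shift in abundant genes moves all others.

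Groups came from the treatment labels and numbers from the sample titles. The 10 members were matched by symbol. Each experiment was tested with limma 3.58.1 (R 4.3.3) on log2(FPKM + 1), which understates changes of low genes, for genes averaging 1 FPKM or more in its 6 libraries; the difference between effects used all 12. Benjamini-Hochberg (BH) adjustment ran over all genes tested, and the threshold was 0.05. Before testing, 4 entries whose symbol occurs more than once were left out. Scripts were tested on simulated data. Whole reads were recovered for 17838 of 17838 genes above 0, within a tolerance of 1e-05 reads or the precision of the file, and give depth and an alternative test (limma-voom).

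Same-numbered libraries deviated together from their group means: correlations across genes were 0.397, 0.540 and 0.345 in the knockdown and 0.791, 0.845 and 0.513 in the overexpression experiment, all above a limit of 0.1, so a fit with the library number as block is quoted where it changes a member's call or a list's count of calls. The members and lists were chosen with earlier results of these data known. Genes named are the members, Spi1, called genes with the smallest p in each list, 1 gene given as values, and the nearest profiles; some genes that this rule takes are not described. Symbols Adgre1 and Lilrb4a were matched to Emr1 and Lilrb4, and Ctsv was not found. Promoters are from RefSeq. Alternatives were another pseudocount (0.1), no filter, median-of-ratios scaling, the block, other variance models, limma-voom, and leaving out each library or same-numbered pair.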

Additional observations from a re-analysis of the deposited data

Results flagged for a closer look

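The effects of raising and lowering Spi1 differed, in the test of the difference itself (overexpression effect minus knockdown effect on the log2 scale, limma with BH adjustment over 11224 genes), for 1 member and 11 genes of the lists, 7 of which the naming rule takes. Over all genes tested, 543 (4.84%) were called in this test. By list, 3 of 8 tested microglia and macrophage markers and 2 of 7 cathepsins and cystatins were called. The lists of 15 lipid, 9 tetraspanin, 8 other stage 2, 8 oxysterol, 7 MiT/TFE and 6 homeostatic genes tested had 1 each. The remaining lists had none. The lists were chosen with earlier results of these data known. For Lgals3 the difference was 0.67 (adjusted p = 0.0399). Clec7a, the receptor dectin-1, had a difference of 1.74 (adjusted p = 0.00367), and the lipid enzyme gene Acsl4 one of 0.69 (adjusted p = 0.00425). For the cystatin gene Cstb it was 0.58 (adjusted p = 0.00612), for the tetraspanin gene Cd82 0.51 (adjusted p = 0.0275) and for Tfe3 0.37 (adjusted p = 0.0356). The sign was opposite for Insig1, at -1.09 (adjusted p = 0.00386), and for Mef2c, at -0.85 (adjusted p = 0.0107). The other 4, named after their values were seen, were Ctss (0.52, adjusted p = 0.0346) and the macrophage markers Itgam (1.20, adjusted p = 0.00386), Ptprc (0.53, adjusted p = 0.0127) and Fcgr1 (1.10, adjusted p = 0.0430). None of these 12 genes passed in overexpression alone, and in each the overexpression change was smaller in size than the knockdown change. The 2 changes had the same sign for Cd82 (-0.13 and -0.64), Tfe3 (-0.04 and -0.41) and Ptprc (-0.06 and -0.59). For the rest the signs were opposite, with overexpression changes from -0.22 for Insig1 to 0.32 for Lgals3. A called difference therefore does not mean that both manipulations changed the gene. The experiments had different controls and share no library, so a difference between experiments enters these values.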

How the results depend on the processing

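Knockdown called 3 members and 2945 genes in limma with BH adjustment. Median-of-ratios scaling left 1 member, Lgals3. The replicate block, with 5081 genes, kept the 3 members, as did the pseudocount of 0.1, robust trended variances and limma-voom; without the filter 2 remained. Leaving out 1 library or a same-numbered pair gave 0 to 1 members and 449 to 2206 genes. Overexpression called 0 members under every alternative run, and 13 genes with the block. The difference called 1 member and 543 genes; without the filter it called 0 members, with the block 5 members and 4658 genes, and with libraries left out 0 to 2 members and 43 to 585 genes. The block changed no other member's call. Members that did not pass changed sign in places. With libraries left out, knockdown changes on the log2 scale ran from -0.106 to 0.0728 for Spp1, -0.0845 to 0.0811 for Gpnmb, -0.0731 to 0.0499 for Cd9, -0.0378 to 0.0357 for Cd63 and -0.110 to 0.0217 for Igf1. Overexpression changes ran from -0.0517 to 0.407 for Spp1, -0.126 to 0.317 for Gpnmb, -0.118 to 0.0420 for Cd9, -0.0346 to 0.106 for Cd63, -0.234 to 0.194 for Fabp5 and -0.0412 to 0.283 for Igf1. Differences ran from -0.0174 to 0.441 for Spp1, -0.115 to 0.328 for Gpnmb, -0.113 to 0.0541 for Cd9, -0.0278 to 0.112 for Cd63 and -0.361 to 0.0673 for Fabp5. Median-of-ratios scaling also turned the overexpression change of Fabp5 to 0.0048 and the difference of Cd9 to 0.0787. Lgals3, Lpl and Cst7 kept their direction in every fit of each comparison. The causes were not tested. With 3 libraries a group, the spread between numbers exceeded the shift between groups for Spp1, Gpnmb and Fabp5 in overexpression. Without the block, changes of the size of the intervals given could not be detected. The block narrowed these overexpression intervals to 0.08 to 0.32 for Spp1, 0.0043 to 0.20 for Gpnmb and -0.12 to 0.10 for Fabp5. No member passed with it in overexpression. Ch25h is limited by depth.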
